A study of Mus musculus with 6 samples.

Results

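The 10 genes described here are the Toll-like receptor genes Tlr1, Tlr2, Tlr3, Tlr4, Tlr6, Tlr7, Tlr8, Tlr9 and Tlr13 and the co-receptor gene Cd14, taken by gene name from a deposited table of 54532 genes. The table gives FPKM, a count of fragments scaled by gene length and library size, for polyadenylated RNA of peritoneal macrophages in 3 groups of 2 libraries. The macrophages came from wild-type male C57BL/6J mice aged 6 to 8 weeks and were harvested 5 days after an injection of 3% thioglycolate, which draws such cells into the peritoneum. Control cells were left untreated. Model cells were given 500 ng/mL LPS for 5.5 h and then 2 mM ATP for 0.5 h. MUS cells were treated in the same way and also received 50 µM muscone, a macrocyclic ketone, 0.5 h before ATP. The sources used here do not state whether cells of several animals were pooled or whether the replicates came from separate animals, so the p-values measure only the spread between these libraries, which may be technical. The libraries held between 15526321 and 17135442 fragments on genes.

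Toll-like receptors recognise conserved molecules of microbes and start the signals that turn on inflammatory genes in macrophages. Tlr1, Tlr2, Tlr4 and Tlr6 act mainly at the cell surface on lipids and lipopeptides, whereas Tlr3, Tlr7, Tlr8, Tlr9 and Tlr13 sense nucleic acids in endosomes. LPS, the ligand used in Model and MUS, is handed by Cd14 to a complex of Tlr4 and Ly96 (MD-2).

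The labelled cell type was compared with marker genes. All 7 macrophage markers passed a mean of 1 FPKM, and their summed FPKM lay between 8426 and 13340 in the 6 libraries. Lyz2, encoding lysozyme, was the most abundant of them, with 10252 and 12007 FPKM in the Control libraries, 11369.9 and 7275 in the Model libraries, and 10904 and 9016 in the MUS libraries. Fcgr1, a high-affinity IgG receptor, rose in Model vs. Control (log2 fold change 3.57, limma adjusted p = 0.00326), and Csf1r, the CSF-1 receptor, fell (-1.37, limma adjusted p = 0.0289). The Csf1r call was lost without Model replicate 1, Model replicate 2, MUS replicate 1 or MUS replicate 2, with log2 fold changes between -1.56 and -1.18 over the leave-outs, and also without the filter on low values or with only the libraries of the 2 groups. Csf1r stood at -1.91 with fragment totals, -1.93 with voom and -2.27 with quantile normalization. Gata6, a factor of resident large peritoneal macrophages, had at most 1.53 FPKM, and the 3 markers of those cells summed to between 5.10 and 10.8 FPKM. Timd4 led them by mean over the libraries, but was the lowest in Control replicate 1 (1.17 FPKM).

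No T cell, mast cell or dendritic cell marker reached a mean of 1 FPKM, and in any library these 3 lists summed to at most 0.345, 1.17 and 2.35 FPKM. By mean over the libraries, their most abundant genes were Cd4, Cma1 and Cd209a. Cd209a had 0.746 and 1.10 FPKM in the Control libraries, 0.403 and 0.408 in the Model libraries, and 0.669 and 0.622 in the MUS libraries. In the other direction, Xcr1 of the same dendritic cell list had 0.118 and 0.0982 FPKM in the Control libraries, 1.24 and 0.652 in the Model libraries, and 1.08 and 0.594 in the MUS libraries. With means under 1 FPKM neither was tested. Of 5 neutrophil markers, S100a8 rose in Model vs. Control (log2 fold change 1.90, limma adjusted p = 0.0365), from 13.5 and 30.6 FPKM in Control to 110.0 and 56.5 in Model, while S100a9, Ly6g, Retnlg and Elane were listed at 0 in every library. The S100a8 call was lost without Control replicate 1, Model replicate 1, MUS replicate 1 or MUS replicate 2, with log2 fold changes between 1.34 and 2.46 over the leave-outs, and also without the filter, with only the 2 groups, and with fragment totals or quantile normalization. Its part in the results was not tested. A listed 0 may be a failed estimate, as Gapdh, which every cell uses, was listed between 0.257 and 1.39 FPKM. Of 4 eosinophil markers, Siglecf was the most abundant, with 4.06 and 2.46 FPKM in the Control libraries and 1.23 to 1.52 in the others, and Prg2 and Epx were listed at 0. Siglecf was not called in Model vs. Control (log2 fold change -0.83, limma adjusted p = 0.0661) or MUS vs. Control (-0.80, limma adjusted p = 0.0593). It was called in both with fragment totals, voom or without Control replicate 2, at limma adjusted p between 0.0217 and 0.281 and between 0.0188 and 0.290 over all alternatives. The 4 mesothelial and fibroblast markers summed to between 12.0 and 24.5 FPKM. Col1a1 led them by mean over the libraries, though Col1a2 was higher in Model replicate 1 and both MUS libraries.

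Libraries that stood apart bear on every comparison with Control. Across the 9794 genes tested, which are not independent replicates, log2(FPKM + 1) of Control replicate 2 correlated with the Model libraries at r = 0.862 and 0.872, whereas Control replicate 1 did so at r = 0.745 and 0.727. The Control libraries correlated with each other at r = 0.924, above either. Control replicate 2 held 34.2 FPKM of Il1b and 183 of Tnf, against 0.550 and 8.62 in Control replicate 1, while all Model and MUS libraries held at least 4750.0 and 654. Model replicate 1 had 24906 genes with a fragment, against 17406 to 19200 in the other libraries. The log2 difference of replicate 1 from replicate 2 had a slope of -0.28 for each doubling of gene length in Model, and of -0.07 in Control and 0.02 in MUS. Il1b, Tnf and Gapdh were chosen after their values were seen. Which part these differences have in the results was not tested, and results are given with and without the libraries.

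Genes were called changed when the limma adjusted p (Benjamini-Hochberg, two-sided, over all genes tested) did not exceed 0.05 and the absolute log2 fold change exceeded 1, on the log2(FPKM + 1) scale, which understates changes of low genes. Of the 10 genes, 9 passed the filter of a mean of 1 FPKM and were tested. In Model vs. Control, 3 of the 9 were called higher (Tlr3, Cd14 and Tlr7), where 9.5% of all genes tested were, and 1 was called lower (Tlr13), where 5.56% of all genes were. The MUS vs. Control fit called the same 3 genes higher and Tlr13 lower, against 11.3% and 8.91% of all genes. In MUS vs. Model, 0 of the 9 were called higher or lower, and so were 0% of all genes in either direction. The comparisons share libraries, so that similar values in Model vs. Control and MUS vs. Control are not separate evidence. In a bulk sample, fewer cells of a type and less RNA per cell cannot be told apart.

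Libraries of the groups were also compared without a model. In Model vs. Control, both Model libraries lay above both Control libraries for 4 of the 9 genes, against 32.6% of all genes, and below them for 1, against 28.5%. For MUS vs. Control, 7 of the 9 lay above (39.6% of all genes) and 1 below (33.8%). In MUS vs. Model, 3 of the 9 lay above (21.2%) and 1 below (21%). The median log2 fold change of the 9 genes was 0.61 in Model vs. Control, 1.35 in MUS vs. Control and 0.26 in MUS vs. Model, beside 0.04, 0.04 and 0.01 for all genes. The 9 genes also passed a mean of at least 5 FPKM, and the medians of all genes that did so were 0.245, 0.255 and 0.004. With libraries scaled to equal fragment totals, the first 2 medians of the 9 genes were 0.11 and 0.82, beside -0.40 and -0.39 for all genes. Without Control replicate 2, the median in Model vs. Control was 1.44, beside 0.06 for all genes. Taken as shares of the fragments on genes of each library, 4 of the 9 lay above and 1 below in Model vs. Control (15.6% and 53.0% of all genes), 5 and 1 in MUS vs. Control (21.02% and 57.2%), and 1 and 1 in MUS vs. Model (20.6% and 20.99%).

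The scale of the deposited FPKM bears on directions. The number of fragments that the FPKM scale implies was 1.45 and 1.34 times the fragments on genes in Control, but 0.909 to 0.998 times in Model and MUS, which the sources used here do not describe. When libraries were instead scaled to equal fragment totals, the median log2 fold change of all genes in Model vs. Control moved from 0.04 to -0.40. Relative to that median, Tlr3, Cd14, Tlr7 and Tlr13 stood at 3.22, 2.50, 1.79 and -1.99, and the same 4 were called. Tlr1 (-0.10), Tlr4 (-0.11) and Tlr8 (-0.32) then turned negative in Model vs. Control, though they lay at 0.30, 0.29 and 0.08 relative to the median. The calls over all genes went from 930 higher and 545 lower to 646 and 1554 with fragment totals, 707 and 715 with quantile normalization, and 684 and 2050 with voom. For MUS vs. Control, 1107 higher and 873 lower became 738 and 1953, 885 and 1102, and 758 and 2386.

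**Figure D1:**
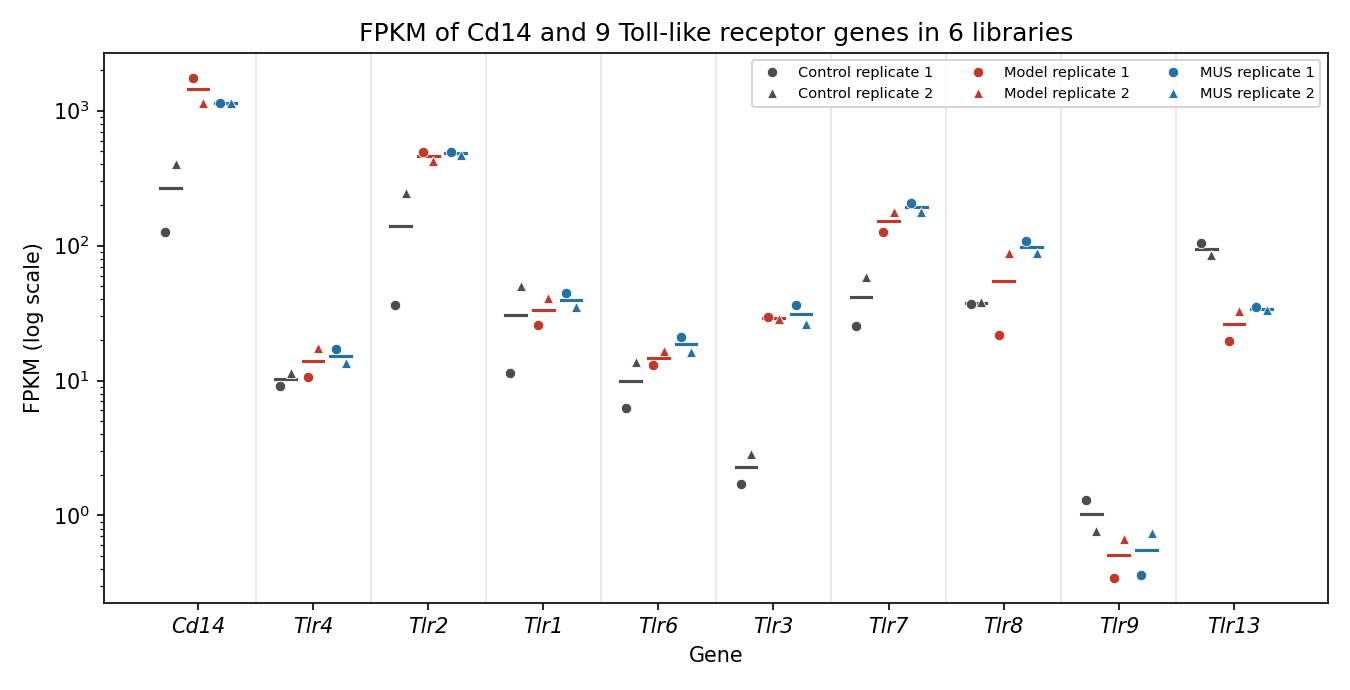
FPKM on a log axis of Cd14 and 9 Toll-like receptor genes, ordered by role along the horizontal axis. Circles are replicate 1, triangles replicate 2, and short lines the means of Control (grey), Model (red) and MUS (blue), where Tlr3 lies at 1.70 and 2.87 in Control and at or above 26.4 in the other libraries, and Tlr13 is the reverse, at or above 85.0 in Control and at most 34.8 elsewhere.

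The LPS receptor complex was followed first, beginning with its co-receptor. Cd14 (ENSMUSG00000051439) had 125 and 406 FPKM in the Control libraries, 1748 and 1148 in the Model libraries, and 1139.7 and 1139.6 in the MUS libraries. It was the highest of the 10 genes in every library, and both stimulated groups lay above both Control libraries, which themselves differed by 3.24-fold. By rank among all genes of a library, Cd14 stood at 218 and 53 in Control and between 26 and 29 in the other 4 libraries. Cd14 rose in Model vs. Control from 266 ± 198 to 1448 ± 424 FPKM (SD, n = 2), with a log2 fold change of 2.64 (standard error 0.59, limma adjusted p = 0.0258). It also rose with muscone added, in MUS vs. Control, to 1139.6 ± 0.0816 FPKM (SD, n = 2), with a log2 fold change of 2.33 (limma adjusted p = 0.0300). The labels number the replicates as batches and do not say what a batch stands for. Within batch 1, the log2 difference between Model and Control was 3.79, and within batch 2 it was 1.498. The same differences for MUS and Control were 3.17 and 1.49.

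The Cd14 call depended on the libraries and settings used. In Model vs. Control it held without Control replicate 2 (log2 fold change 3.49) and was lost without Control replicate 1 (1.80), Model replicate 1 (2.34), Model replicate 2 (2.95), MUS replicate 1 or MUS replicate 2 (2.64 each). For MUS vs. Control it was lost without Control replicate 1 (1.49) and without either MUS library (2.33 each). It was also lost without the filter on low values and with quantile normalization (1.66 in Model vs. Control), and in Model vs. Control with only the libraries of the 2 groups. Over all alternatives, the limma adjusted p lay between 0.00288 and 0.182 in Model vs. Control and between 0.00367 and 0.190 in MUS vs. Control.

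Tlr4 (ENSMUSG00000039005), the signalling receptor for LPS, had 9.13 and 11.4 FPKM in the Control libraries, 10.7 and 17.4 in the Model libraries, and 17.1 and 13.5 in the MUS libraries. The Model and Control libraries overlapped, whereas both MUS libraries lay above Control. The log2 fold changes were 0.39 in Model vs. Control (95% interval -0.32 to 1.10, limma adjusted p = 0.393) and 0.54 in MUS vs. Control (-0.17 to 1.24, limma adjusted p = 0.229). The latter became 0.037 with fragment totals, 0.039 with voom and 0.35 with quantile normalization, and as shares of the fragments on genes the MUS and Control libraries overlapped. Ly96, the protein that binds LPS beside Tlr4, had 12.8 and 13.8 FPKM in the Control libraries, 36.3 and 25.3 in the Model libraries, and 33.2 and 26.5 in the MUS libraries. Every Model and MUS library thus held more Ly96 than either Control library. Ly96 rose in Model vs. Control (log2 fold change 1.13, limma adjusted p = 0.0366) and in MUS vs. Control (1.10, limma adjusted p = 0.0324). Of the 6 leave-outs, only that of Model replicate 2 kept the Ly96 call in Model vs. Control (log2 fold changes from 0.88 to 1.38), and those of either Model library kept it in MUS vs. Control (0.94 to 1.26). The call was lost in both comparisons with fragment totals, quantile normalization or voom, at log2 fold changes as low as 0.61 and 0.59.

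The ratio of Cd14 to Tlr4 within a library does not change when all values of that library are multiplied by a common factor, though quantile normalization changes it. A difference between libraries that depends on gene length can change it too, as Cd14 has 1572 bases and Tlr4 has 5556. Model replicate 1 differed from Model replicate 2 with a slope of -0.28 for each doubling of length. No correction for gene length was applied to the ratios, and the part of length in them was not tested. Cd14 held 13.7 and 35.7 times the FPKM of Tlr4 in Control, 163 and 66.0 times in Model, and 66.6 and 84.4 times in MUS. Both Model ratios lay above both Control ratios, while the MUS ratios lay between those of the Model libraries. The mean log2 ratio differed by 2.23 in Model vs. Control (exact permutation p = 0.333, the smallest that 2 against 2 can give), with 3.57 in batch 1 and 0.89 in batch 2, and it was 1.44 with quantile normalization. Over the leave-outs this difference ran from 1.54 without Control replicate 1 to 2.92 without Control replicate 2. Between MUS and Model the mean log2 ratio differed by -0.47 (exact permutation p = 1), with -1.30 in batch 1 and 0.35 in batch 2. Without Model replicate 1 this difference was 0.18, without Model replicate 2 it was -1.12, and with quantile normalization it was -0.059.

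Tlr2 (ENSMUSG00000027995), which senses bacterial lipopeptides as a dimer with Tlr1 or Tlr6, had 36.4 and 244 FPKM in the Control libraries, 492 and 425 in the Model libraries, and 498 and 471 in the MUS libraries. All Model and MUS libraries lay above Control, but the Control replicates were 6.70-fold apart, the widest gap of the 10 genes in any group. Model exceeded Control by a log2 fold change of 2.26 (95% interval 0.39 to 4.12), and Tlr2 was not called (limma adjusted p = 0.0940). Between MUS and Control it was 2.34 (limma adjusted p = 0.0703), with 1.40 and 1.49985 in these comparisons under quantile normalization, and with the replicate number as a block Tlr2 was called (limma adjusted p = 0.0496). Within batches, the log2 difference between Model and Control was 3.72 in batch 1 and 0.80 in batch 2. Without Control replicate 2, Tlr2 was called with a log2 fold change of 3.61 in Model vs. Control and 3.70 in MUS vs. Control, and without Control replicate 1 it was not called, at 0.90 and 0.99. The limma adjusted p over all alternatives lay between 0.00125 and 0.343 in Model vs. Control and between 0.00111 and 0.279 in MUS vs. Control.

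Tlr1 (ENSMUSG00000044827), which joins Tlr2 on triacylated lipopeptides, had 11.4 and 50.1 FPKM in the Control libraries, 26.0 and 40.9 in the Model libraries, and 44.6 and 34.8 in the MUS libraries. Control replicate 1 was the lowest and Control replicate 2 the highest of the 6 libraries, so that the other groups lay inside the range of Control. Model vs. Control gave a log2 fold change of 0.42 for Tlr1 (limma adjusted p = 0.668), with 1.13 in batch 1 and -0.29 in batch 2. Tlr6 (ENSMUSG00000051498), the partner on diacylated lipopeptides, had 6.23 and 13.7 FPKM in the Control libraries, 13.0 and 16.6 in the Model libraries, and 20.9 and 16.3 in the MUS libraries. The Model and Control libraries overlapped for Tlr6, and both MUS libraries lay above Control. Its log2 fold change was 0.61 between Model and Control (limma adjusted p = 0.290) and 0.91 between MUS and Control (limma adjusted p = 0.115). With fragment totals these were 0.11 and 0.42 and with voom 0.12 and 0.45, and as shares of the fragments MUS overlapped Control. Tlr1 moved from 0.68 in MUS vs. Control to 0.17 with fragment totals, 0.19 with voom and 0.22 with quantile normalization.

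Calls of the Tlr2 partners turned on the Control libraries. Without Control replicate 2, Tlr1 (1.44) and Tlr6 (1.12) were called in Model vs. Control, as they were in MUS vs. Control (1.71 and 1.43). Without Control replicate 1, Tlr1 turned to -0.60 and -0.34 in the same comparisons and Tlr6 fell to 0.09 and 0.40, with no call. Tlr1 and Tlr6 lie on the minus strand of chromosome 5 with 18.5 kb and 0 annotated genes between them, and are alike in sequence. Of the 50-base stretches in their transcripts, 13.6% of Tlr1 and 12.3% of Tlr6 also occur in the other gene, and 15.4% of Tlr1 occur in at least 1 other gene, so that their levels are uncertain.

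Tlr2 was also compared with its partners within each library, where none of the 3 genes had been called in Model vs. Control. Tlr2 held 3.21 and 4.87 times the FPKM of Tlr1 in Control, 18.9 and 10.4 times in Model, and 11.2 and 13.5 times in MUS. Every Model and MUS library was above both Control libraries in this ratio, while Model and MUS overlapped. The mean log2 ratio of Tlr1 to Tlr2 differed by -1.83 in Model vs. Control (exact permutation p = 0.333, the smallest possible), with -2.56 in batch 1 and -1.09 in batch 2. Between MUS and Model the ratio differed by 0.19 (exact permutation p = 1), with 0.76 and -0.38 in the batches. Without Model replicate 1 this difference was -0.24, and without Model replicate 2 it was 0.62.

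Over Tlr6, the FPKM of Tlr2 were 5.85-fold and 17.8-fold higher in Control, 37.8-fold and 25.5-fold in Model, and 23.9-fold and 28.9-fold in MUS. Control replicate 2 again stood nearer to the stimulated libraries than Control replicate 1. The mean log2 ratio of Tlr6 to Tlr2 differed by -1.61 in Model vs. Control (exact permutation p = 0.333), with -2.69 in batch 1 and -0.52 in batch 2. Without Control replicate 1 the difference was -0.81, without Control replicate 2 it was -2.41, and with quantile normalization it was -0.98. The MUS vs. Model difference was 0.24 (exact permutation p = 0.667), with 0.66 and -0.18 in the batches. It was -0.04 without Model replicate 1 and 0.53 without Model replicate 2.

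Among the endosomal receptors, Tlr3 (ENSMUSG00000031639), the sensor of double-stranded RNA, had 1.70 and 2.87 FPKM in the Control libraries, 29.5 and 28.8 in the Model libraries, and 36.1 and 26.4 in the MUS libraries. The Model and MUS libraries overlapped with each other and lay far above Control. These values rest on 202 and 342 fragments in Control and on 2166 to 2843 in the other libraries. Tlr3 rose 12.8-fold in Model vs. Control, from 2.28 ± 0.830 to 29.1 ± 0.464 FPKM (SD, n = 2), with a log2 fold change of 3.22 (standard error 0.28, limma adjusted p = 0.00157). It rose 13.7-fold in MUS vs. Control, to 31.3 ± 6.86 FPKM (SD, n = 2), with a log2 fold change of 3.30 (limma adjusted p = 0.00133). The call held in all alternatives of both comparisons, with limma adjusted p between 0.000437 and 0.0281 in Model vs. Control. Batch 1 gave 3.50 and batch 2 gave 2.95. Gm45542, on the opposite strand, shares 381 exon bases with Tlr3 and was listed at 0 in every library.

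Tlr7 (ENSMUSG00000044583), a sensor of single-stranded RNA, had 25.4 and 58.5 FPKM in the Control libraries, 126 and 178 in the Model libraries, and 207 and 179 in the MUS libraries. The 3 groups did not overlap, with Control lowest and MUS highest, although Model replicate 2 and MUS replicate 2 were nearly equal and their order was reversed as shares of the fragments. Tlr7 rose 3.62-fold in Model vs. Control, from 41.9 ± 23.4 to 152 ± 37.0 FPKM (SD, n = 2), with a log2 fold change of 1.92 (standard error 0.44, limma adjusted p = 0.0289). It rose 4.60-fold in MUS vs. Control, with a log2 fold change of 2.29 (limma adjusted p = 0.0131). Batch 1 gave log2 differences of 2.26 and 2.98 in these comparisons, and batch 2 gave 1.59 and 1.60.

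The Tlr7 call in Model vs. Control held without Control replicate 2 (log2 fold change 2.51) and was lost without Control replicate 1 (1.34), Model replicate 1 (2.17), Model replicate 2 (1.68), or either MUS library (1.92 each). The MUS vs. Control call was lost without MUS replicate 1 (2.18) and MUS replicate 2 (2.39). Quantile normalization (1.21) and fitting only the 2 groups also ended it in Model vs. Control, and testing all genes without the filter ended it in both. The limma adjusted p of Tlr7 lay between 0.00518 and 0.144 over the alternatives in Model vs. Control and between 0.00316 and 0.121 in MUS vs. Control.

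Tlr8 (ENSMUSG00000040522), a close relative of Tlr7 that lies 40.6 kb from it on the X chromosome with 0 annotated genes between them, had 37.2 and 38.5 FPKM in the Control libraries, 21.9 and 87.7 in the Model libraries, and 108 and 88.4 in the MUS libraries. Model replicate 1 was below Control and Model replicate 2 above it, so that the Model libraries spanned Control while MUS lay above both other groups. Model vs. Control gave a log2 fold change of 0.22 (limma adjusted p = 0.818), with -0.74 in batch 1 and 1.17 in batch 2. In MUS vs. Model it was 1.13 (95% interval -0.26 to 2.52, limma adjusted p = 0.680), with 2.25 in batch 1 and 0.01 in batch 2. Without Model replicate 1 these log2 fold changes of Tlr8 were 1.19 and 0.16, and without Model replicate 2 they were -0.76 and 2.11. Between MUS and Control the value was 1.35 (limma adjusted p = 0.135), which was 0.82, 0.83 and 0.72 with fragment totals, voom and quantile normalization, and which became a call without either Model library or with only the 2 groups, at adjusted p between 0.0200 and 0.433 over the alternatives.

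Tlr13 (ENSMUSG00000033777), which detects bacterial ribosomal RNA and is found in mice but not in humans, had 105 and 85.0 FPKM in the Control libraries, 19.7 and 32.7 in the Model libraries, and 34.8 and 33.2 in the MUS libraries. Control was far above the other libraries, and both MUS libraries were slightly above both Model libraries. Tlr13 fell 3.63-fold in Model vs. Control, from 95.1 ± 14.3 to 26.2 ± 9.21 FPKM (SD, n = 2), with a log2 fold change of -1.85 (standard error 0.33, limma adjusted p = 0.0122). It fell 2.80-fold in MUS vs. Control, to 34.0 ± 1.16 FPKM (SD, n = 2), with a log2 fold change of -1.45 (limma adjusted p = 0.0213). Batch 1 and batch 2 gave log2 differences of -2.36 and -1.35 in Model vs. Control and of -1.57 and -1.33 in MUS vs. Control.

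The Tlr13 call in Model vs. Control was lost without Model replicate 1 (-1.50) and without the filter, at limma adjusted p between 0.00376 and 0.0747 over the alternatives. The MUS vs. Control call was lost without Control replicate 1 (-1.30), MUS replicate 1 (-1.48), MUS replicate 2 (-1.42) or the filter, at limma adjusted p between 0.00513 and 0.157. By rank among all genes of a library, Tlr13 went down from 258 and 363 in Control to between 1305 and 2134 in the others, while Tlr3 went up from 8383 and 6864 to between 1269 and 1596.

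Tlr9 (ENSMUSG00000045322), the receptor for unmethylated CpG DNA, had 1.30 and 0.767 FPKM in the Control libraries, 0.346 and 0.668 in the Model libraries, and 0.361 and 0.743 in the MUS libraries. These came from 103 and 61, 17 and 36, and 19 and 42 fragments. Both Control libraries were above the Model and MUS libraries, but the replicates of each group differed by 1.69-fold or more. With a mean under 1 FPKM, Tlr9 was not tested. The other mouse receptors were lower still, with at most 0.281 FPKM for Tlr11, 0.0457 for Tlr5 and 0.0275 for Tlr12 (13, 5 and 2 fragments).

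In the order of levels per length, Cd14 and then Tlr2 led by mean FPKM in all 3 groups and Tlr9 was last. Tlr13 followed them in Control, but in Model and MUS this place was held by Tlr7, and Tlr13 came after Tlr8 and Tlr1 as well. In Control, only the steps from Tlr13 to Tlr7, from Tlr6 to Tlr3 and from Tlr3 to Tlr9 separated neighbours whose libraries did not overlap. In Model, the first 3 steps down from Cd14 to Tlr2, Tlr7 and Tlr8 were free of overlap, as were those from Tlr13 to Tlr6 and from Tlr4 to Tlr9. In MUS, the steps between Tlr1, Tlr13 and Tlr3 and between Tlr6 and Tlr4 were the ones with overlap.

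As shares of the summed FPKM of the 9 receptors, the composition also shifted. The sum itself was 234 and 505 FPKM in the Control libraries, 738 and 827 in the Model libraries, and 967 and 863 in the MUS libraries. Tlr2 took 15.6% and 48.3% of it in the Control libraries, 66.6% and 51.3% in the Model libraries, and 51.5% and 54.6% in the MUS libraries. Tlr13 took 45.0% and 16.8% in Control and between 2.67% and 3.96% in the other libraries.

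The largest receptor gene of Control replicate 1 was therefore Tlr13, and that of every other library was Tlr2. The 4 cell-surface receptors together made up 27.0% and 63.2% in the Control libraries, 73.3% and 60.4% in the Model libraries, and 60.0% and 62.0% in the MUS libraries. Control replicate 2 lay among the stimulated libraries in this share, and only Control replicate 1 was apart. Tlr7 held 10.9% and 11.6% in Control and 17.0% to 21.5% in the Model and MUS libraries, with no overlap. Tlr3 likewise went from 0.725% and 0.569% to between 3.06% and 3.99%.

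**Figure D2:**
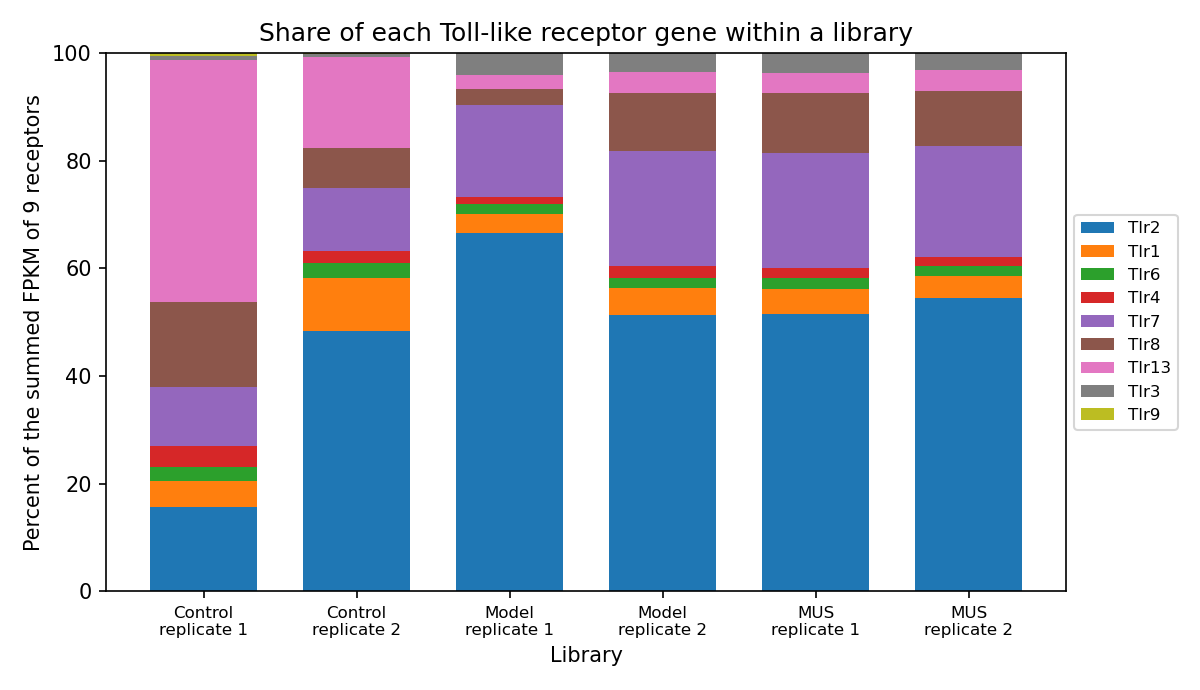
Share of each receptor gene in the summed FPKM of the 9 Toll-like receptor genes, in percent, with 1 bar for each library. Tlr13 (pink) holds 45.0% and 16.8% in Control and at most 3.96% elsewhere, and Tlr2 (blue) holds 15.6% in Control replicate 1 and 48.3% or more in the other libraries.

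In MUS vs. Model, where the addition of muscone was the question, the log2 fold changes of the 9 genes lay between -0.31 and 1.13. Tlr8 was the highest and Cd14 the only one below 0, although Cd14 was at 0.081 with quantile normalization. Some small values turned negative without 1 library, namely Tlr1 (-0.051) and Tlr4 (-0.18) without Model replicate 1, Tlr2 (-0.022) without Model replicate 2, and Tlr3 (-0.14) and Tlr4 (-0.016) without MUS replicate 1. The limma adjusted p lay between 0.680 and 0.988, and none of the 9 had an unadjusted p under 0.05. Across all genes 0 were called by limma, with 825 at an unadjusted p under 0.05, and voom on recovered fragments also called 0. Without Model replicate 2, 19 genes were called higher and 12 lower, and without either Control library 4 and 1, with 0 of the 9 genes among them. Tlr7, Tlr8 and Tlr13 were higher in both MUS libraries than in both Model libraries, and Cd14 was lower. As shares of the fragments on genes, only Cd14 kept that order, and the other 3 overlapped. Tlr2, which overlapped in FPKM, was higher in both MUS libraries by these shares. Batch 2 held almost no difference for Tlr7, Tlr8, Tlr13 and Cd14, at log2 differences of 0.0081, 0.012, 0.020 and -0.011. Batch 1, which holds Model replicate 1, had 0.72, 2.25, 0.79 and -0.62. The 95% intervals of the fold changes were -0.69 to 1.41 for Tlr7, -0.37 to 1.18 for Tlr13, -1.70 to 1.07 for Cd14 and -0.59 to 0.75 for Tlr3.

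**Figure D3:**
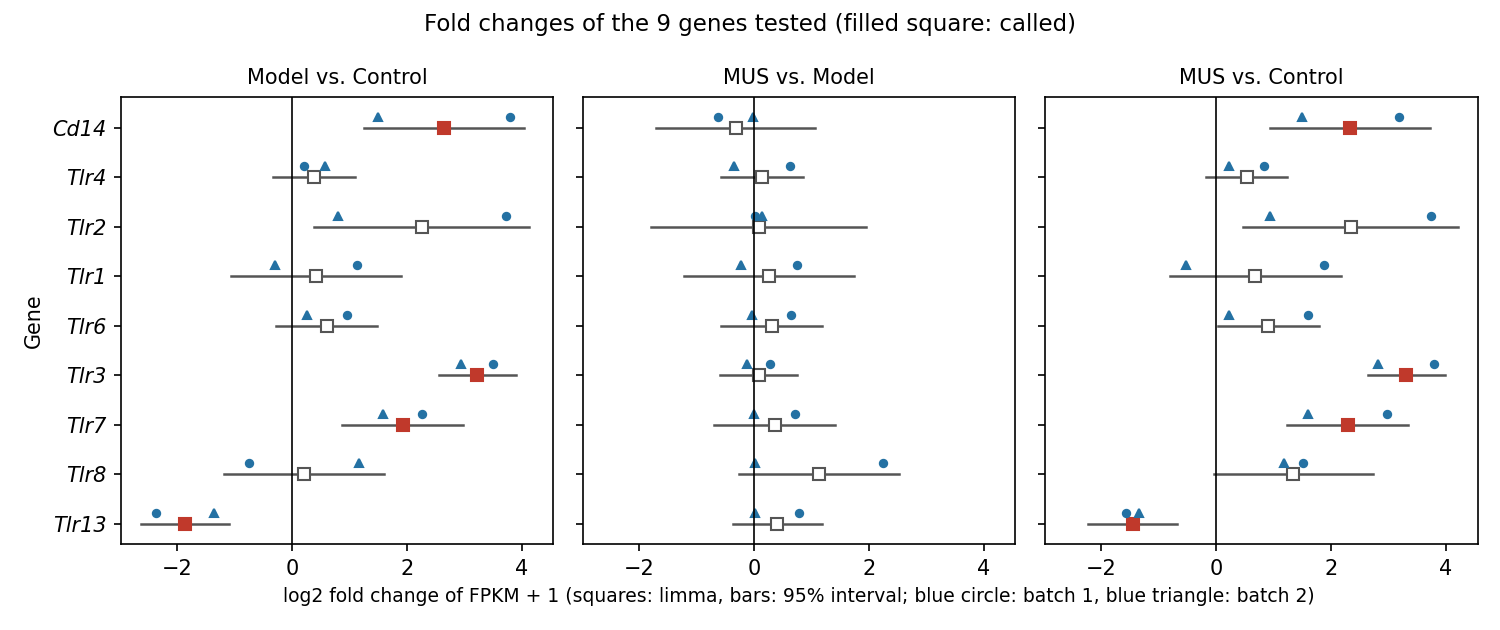
Log2 fold change of FPKM + 1 for the 9 genes tested in each comparison, where squares are the limma estimates, filled red where called, bars are their 95% intervals, and blue circles and triangles are the log2 differences within batch 1 and batch 2. Tlr3, Cd14 and Tlr7 are called higher and Tlr13 lower in both comparisons with Control, with 0 calls in MUS vs. Model, and Tlr1, Tlr4 and Tlr8 change sign in Model vs. Control with fragment totals, a scaling that moves the median of all genes to -0.40 and leaves them at 0.30, 0.29 and 0.08 above it.

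Receptors need partners to fold, travel and bind their ligands. Of 14 accessory and trafficking genes, 13 were tested, and in Model vs. Control 2 were called higher and 2 lower, where 9.5% and 5.56% of all genes were, with a median log2 fold change of -0.20 (all genes 0.04). With fragment totals or voom 0 of them were called higher and 4 lower, where 15.9% and 20.9% of all genes were then called lower, and with quantile normalization 0 and 3 were, against 7.22% and 7.30% of all genes. Besides Ly96, Slc15a3, a transporter of the endolysosome, rose from 95.3 and 119 FPKM in Control to 295 and 307 in Model (log2 fold change 1.49, limma adjusted p = 0.0261), with 216 and 282 in MUS. Model and MUS lay above Control for Slc15a3, and MUS below Model. With fragment totals, quantile normalization or voom the Slc15a3 call was lost, at log2 fold changes as low as 0.57, and of the 6 leave-outs only that of Control replicate 2 kept it (1.33 to 1.65).

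In Model vs. Control, 8 of the 13 genes of that list had a negative log2 fold change. Those called lower were Rab7b and Cnpy3. Rab7b, a small GTPase that directs Tlr4 and Tlr9 to lysosomes, had 40.0 and 16.6 FPKM in the Control libraries, 2.01 and 4.34 in the Model libraries, and 8.70 and 9.25 in the MUS libraries. The groups were fully apart, with MUS between Model and Control. Rab7b fell in Model vs. Control (log2 fold change -2.74, limma adjusted p = 0.00944), and this call was lost without Model replicate 1 (-2.33). Its log2 fold change was 1.32 in MUS vs. Model (limma adjusted p = 0.475) and -1.43 in MUS vs. Control (limma adjusted p = 0.0563), which was called without Control replicate 2 (-2.04), with a mean of at least 5 FPKM, and with fragment totals, quantile normalization or voom. Over the leave-outs, Rab7b ran from -2.04 to -0.82 in MUS vs. Control. Cnpy3, a chaperone of several Toll-like receptors, had 13.3 and 7.22 FPKM in the Control libraries, 3.41 and 3.64 in the Model libraries, and 3.78 and 5.42 in the MUS libraries.

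Both stimulated groups thus lay below Control for Cnpy3. Its call in Model vs. Control (-1.26) had a limma adjusted p of 0.0341, and of the 6 leave-outs only that of Control replicate 2 kept the call, with log2 fold changes from -1.66 to -0.86. In MUS vs. Control, 2 of the 13 genes were called higher (Ly96 and Slc15a3) and 0 lower, against 11.3% and 8.91% of all genes, and with the replicate block Slc15a3 lost its call. With fragment totals or voom 0 were called higher and 4 lower, Rab7b and Cnpy3 among them, while 19.9% and 24.4% of all genes were then called lower. Quantile normalization gave 0 and 3, against 9.04% and 11.3% of all genes. The median log2 fold change of the list between MUS and Control was -0.16, and 0 genes were called in MUS vs. Model.

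Endosomal receptors are cut by proteases, and their ligands are released by nucleases. Of 9 receptor and ligand processing genes, 8 were tested and 1, Rnaset2b, was called higher in Model vs. Control (log2 fold change 1.33, limma adjusted p = 0.0327) and MUS vs. Control (1.59, limma adjusted p = 0.0148). This 1 of 8 stands beside 9.5% and 11.3% of all genes called higher. Rnaset2b, an endolysosomal ribonuclease, had 0.167 and 1.00 FPKM in the Control libraries, 3.32 and 2.39 in the Model libraries, and 4.34 and 2.98 in the MUS libraries. Its Control mean of 0.584 FPKM was under the filter of 1 FPKM. The gene passed that filter through the means of Model (2.86) and MUS (3.66), which favours a call of higher. Of its 50-base stretches, 56.0% also occur in Rnaset2a, so its level is uncertain, and of the 6 leave-outs only that of Control replicate 2 kept the Model vs. Control call (0.94 to 1.71). In MUS vs. Control it was lost without Control replicate 1 (1.20), MUS replicate 1 (1.38) or MUS replicate 2 (1.80). The cathepsin genes Ctsb, Ctsk, Ctsl and Ctss, singled out after their values were seen, were not called, with log2 fold changes from -0.04 to 0.62 in Model vs. Control. The median log2 fold change of the 8 genes was -0.01 between Model and Control and 0.01 between MUS and Control, and 0 of them were called in MUS vs. Model.

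Signals pass from the receptors through adaptors and kinases. Of 15 adaptor, kinase and brake genes, 13 were tested and 1, Myd88, was called higher in Model vs. Control and in MUS vs. Control, against 9.5% and 11.3% of all genes, while the median log2 fold change was 0.24 and 0.33 (all genes 0.04 in each). Myd88, the adaptor of all these receptors except Tlr3, had 13.1 and 28.2 FPKM in the Control libraries, 108 and 79.6 in the Model libraries, and 51.5 and 60.9 in the MUS libraries. The groups did not overlap, and MUS lay between Control and Model. Myd88 had a log2 fold change of 2.21 between Model and Control (limma adjusted p = 0.0135), of 1.49 between MUS and Control (limma adjusted p = 0.0371) and of -0.71 between MUS and Model (limma adjusted p = 0.703). The first of these calls was lost without Model replicate 1 (1.99), and that in MUS vs. Control without Control replicate 1 (0.97), MUS replicate 1 (1.61) or MUS replicate 2 (1.37), or with fragment totals, quantile normalization or voom. Ticam1, the adaptor of Tlr3 and also singled out after its values were seen, was at 9.60 and 7.22 FPKM in Control and 5.26 and 8.80 in Model, and was not called. Without the filter on low values 0 genes of the 3 lists were called, but so were only 0.755% higher and 0.106% lower of all 30192 genes in Model vs. Control, and 1.11% and 0.401% in MUS vs. Control. With only the 2 groups, where 5.52% and 2.61% of all genes were called, Ly96, Slc15a3, Cnpy3 and Rnaset2b lost their calls in Model vs. Control, as Rnaset2b also did with log2(FPKM + 0.1).

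The genes most like the called members were sought by the root mean square distance of centred log2(FPKM + 1) over the 6 libraries, among the 9794 genes tested. For Tlr3 these were Shisa3 (distance 0.10), Mlkl (0.13) and Slamf1 (0.15), where Tlr3 itself varied by 1.55 around its mean. In Control, Shisa3 had 0.0552 and 0.542 FPKM and Slamf1 had 0 and 0.128, against 10.2 to 13.4 and 9.73 to 11.7 in the other libraries. Both thus passed the filter of 1 FPKM only through Model and MUS. The log2(FPKM + 1) scale understates changes of such low genes, so their distances from Tlr3 do not mean equal fold changes. Mlkl, the effector of necroptosis, had 5.09 and 8.86 FPKM in Control and 70.8 to 96.9 in the other libraries. The profile of Tlr7 was nearest to Jarid2 (0.10) and Clic4 (0.11). Nearest to Tlr13 were Zmiz1 (0.08), Rb1 (0.11) and Vps13c (0.11), and Zmiz1 went from 27.0 and 23.3 FPKM in Control to 5.35 and 9.49 in Model and 8.99 and 9.12 in MUS. Cd14 was most like Dck (0.13), Nfkbia (0.16), which encodes the inhibitor of NF-κB, and F10 (0.17).

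Promoter sequences from RefSeq (build GRCm38.p6, 250 bases before to 50 after a start) were matched by symbol for 7 of the 10 genes, with 9 promoters. Tlr4, Tlr7 and Cd14 had no entry. Motifs were searched on both strands. The NF-κB motif occurred in 2 of the 9 promoters (Tlr2 and Tlr3) and in 8.46% of all 32851 promoters. The interferon response motif GAAANNGAA occurred in 2 (Tlr6 and Tlr8, with a pair of overlapping matches in Tlr6), against 8.56% of all promoters. The AP-1 motif TGANTCA occurred in 1 (Tlr9), against 7.81%, and the PU.1 core GAGGAA in 4 (Tlr1, Tlr8, Tlr9 and Tlr13), against 28.3%. A match is a description of letters and not a site in use.

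The promoters of Tlr3 and Tlr13, which were called in opposite directions, and of Tlr2 are shown with the matched letters in capitals. They lie at chr8:45410331-45410630, chrX:106143025-106143324 and chr3:83841559-83841858, on the minus, plus and minus strand. The NF-κB match starts at -211 from the start in Tlr3, and in Tlr2 at -173 and -172 (overlapping) and at -8. In Tlr13 the PU.1 core starts at -83.
Tlr3: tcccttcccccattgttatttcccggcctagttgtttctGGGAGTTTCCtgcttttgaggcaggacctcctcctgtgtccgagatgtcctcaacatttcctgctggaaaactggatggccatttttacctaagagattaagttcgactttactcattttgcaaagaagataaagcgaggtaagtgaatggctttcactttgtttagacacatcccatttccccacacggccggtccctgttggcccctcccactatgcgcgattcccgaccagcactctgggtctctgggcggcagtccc
Tlr13: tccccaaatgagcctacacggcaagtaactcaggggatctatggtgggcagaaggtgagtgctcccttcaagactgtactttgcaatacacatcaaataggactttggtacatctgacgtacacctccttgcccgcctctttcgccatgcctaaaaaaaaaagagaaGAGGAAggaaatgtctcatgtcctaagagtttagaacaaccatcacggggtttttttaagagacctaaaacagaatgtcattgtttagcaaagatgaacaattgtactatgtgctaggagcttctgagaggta
Tlr2: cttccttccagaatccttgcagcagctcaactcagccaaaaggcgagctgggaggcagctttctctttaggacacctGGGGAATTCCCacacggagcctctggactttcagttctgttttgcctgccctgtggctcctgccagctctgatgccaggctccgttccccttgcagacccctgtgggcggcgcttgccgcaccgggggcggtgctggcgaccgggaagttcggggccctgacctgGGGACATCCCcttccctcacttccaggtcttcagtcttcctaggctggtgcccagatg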

How the data were processed

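Poly-A RNA of 6 libraries was measured, 2 each of Control, Model and MUS. The deposited table gives FPKM for 54532 genes. The study's methods name RSEM for FPKM, whereas the processing notes name HISAT2, featureCounts 1.5.0-p3 and GRCm39. Which of them made the table was not tested. The gene positions in the table equal those of GENCODE M21, on GRCm38, for 98.3% of 54495 shared gene identifiers, and positions are given on that build. FPKM times gene length was a whole multiple of 1 step for 100% of values in every library (tolerance 0.1 fragment), and these multiples were taken as fragments. A count of 3 fragments, the floor used here, corresponds to 0.131 to 0.213 FPKM for a gene of 1 kb, which covers counting error only.

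The 10 genes were found by gene name. The members and lists were chosen with earlier results of these data known. limma 3.58.1 in R 4.3.3 was fitted to log2(FPKM + 1) for 9794 genes whose mean reached 1 FPKM, with 1 model of 3 groups, a trend in eBayes and 3 residual degrees of freedom. A call needed an absolute log2 fold change above 1 and a p of 0.05 or less after Benjamini-Hochberg adjustment. The fit was tested on simulated data. Those libraries had a common spread and were scaled to their own fragment totals. They lacked the gap between the Control replicates, the FPKM scale of Control and the length slope of Model replicate 1. The simulation therefore does not show how the fit behaves under these features. Ratios within a library were compared by a two-sided exact permutation test, which cannot go below 0.333 with 2 against 2. Tables and figures used Python 3.11.15, NumPy 2.4.6, pandas 2.3.3 and Matplotlib 3.10.9.

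Named genes were all members, the other mouse Toll-like receptors, the called genes of each list (at most 4 in each direction), up to 3 genes nearest to each called member, and cell type markers. The labels give the replicate number as the batch and do not say what was shared within it. As a check of this pairing, the difference between replicate 1 and replicate 2 was correlated across the 9794 genes, with 0.12 between Control and Model, 0.14 between Model and MUS, and -0.09 between MUS and Control. With values this small, the libraries of a batch are not known to be matched pairs. Differences within a batch follow the numbering of the labels only.

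The alternatives were a pseudocount of 0.1, no filter on low values, a mean of at least 5 FPKM, only the 2 groups compared, no trend, the replicate number as a block, fragment-total, median-ratio and quantile scaling, voom on recovered fragments, and each library left out in turn. A correction for gene length, quantile normalization for the ratios and the order of libraries by their share of fragments on genes were added after the data were seen. Where a library was left out, the lone sample of its group was assumed to vary like the other groups. Shared sequence was counted as stretches of 50 bases of the annotated transcripts. No library and no column was left out.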

Additional observations from a re-analysis of the deposited data

How the results depend on the processing

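Of the values of single genes under alternatives, with Siglecf not included, 761 kept their direction and their side of the thresholds, 114 lost a call, 19 gained one and 24 turned direction. Of the counts and ratios under alternatives, 227 stayed close to the reported value and 70 did not, where close is within 1.5 times for a count and within the larger SD of the replicates of the 2 groups for a log2 ratio. Both tallies include MUS vs. Model, where the members and list genes had no call as reported or under any alternative. No call could be lost there, so the tallies do not measure how stable the comparisons with Control were. Tlr3 kept its call in both comparisons with Control under all alternatives. With 2 libraries a group, the Model vs. Control calls of Cd14 and Tlr7 were lost when any library except Control replicate 2 was removed, MUS libraries included. Tlr9, with 17 to 103 fragments and replicates 1.69-fold to 2.06-fold apart, was fitted only without the filter, at -0.43 in Model vs. Control (limma adjusted p = 0.488). Tlr5 and Tlr12 had at most 5 and 2 fragments, beside a floor of 3. Unless stated otherwise, the cause was not tested.

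In Model vs. Control, receptor genes called higher (3) became 1 with no filter on low values, with only the 2 groups compared and with quantile normalization, and 1 to 6 over the leave-outs. Those called lower (1) became 0 with no filter, and 0 to 1 over the leave-outs. Accessory and trafficking genes called (4) became 0 with no filter, 1 with only the 2 groups and 5 with the replicate block (3 higher and 2 lower), and 0 to 4 over the leave-outs, where 2 higher and 2 lower became 0 and 4 with fragment totals and voom and 0 and 3 with quantile normalization. Receptor and ligand processing genes (1) became 0 with log2(FPKM + 0.1), no filter, a mean of at least 5 FPKM and only the 2 groups, 2 with fragment totals and voom, and 0 to 2 over the leave-outs. Adaptor, kinase and brake genes (1) became 0 with no filter, 2 with fragment totals and quantile normalization, 4 with voom, and 0 to 2 over the leave-outs. The mean of at least 5 FPKM leaves Rnaset2b out of the test. Of all genes, 9.5% were called higher and 5.56% lower as reported, 9.97% and 6.19% with the replicate block, 9.72% and 5.57% with log2(FPKM + 0.1), 15.4% and 5.21% with a mean of at least 5 FPKM, 0.755% and 0.106% with no filter, 5.52% and 2.61% with only the 2 groups, 7.22% and 7.30% with quantile normalization, 6.60% and 15.9% with fragment totals, and 6.98% and 20.9% with voom. Over the leave-outs these shares ran from 5.45% to 12.6% and from 1.43% to 8.58%, the highest of both, like the count of 6, without Control replicate 2.

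In MUS vs. Control, receptor genes called higher (3) became 1 with no filter and 1 to 6 over the leave-outs, and those called lower (1) became 0 with no filter and 0 to 1 over the leave-outs. Accessory and trafficking genes (2) became 0 with no filter, 1 with the replicate block, 4 with fragment totals and voom and 3 with quantile normalization (all lower, where the reported 2 were higher), and 0 to 4 over the leave-outs. Receptor and ligand processing genes (1) became 0 with no filter and a mean of at least 5 FPKM, 2 with fragment totals and quantile normalization, 3 with voom, and 0 to 2 over the leave-outs. Adaptor, kinase and brake genes (1) became 0 with no filter and quantile normalization, 2 with only the 2 groups, and 0 to 2 over the leave-outs, and with fragment totals and voom the 1 call was of a lower gene. The calls these scalings added to the last 2 lists in either comparison were all lower. Of all genes, 11.3% were called higher and 8.91% lower as reported, 12.3% and 9.35% with the replicate block, 17.4% and 8.25% with a mean of at least 5 FPKM, 11.9% and 8.79% with only the 2 groups, 1.11% and 0.401% with no filter, 9.04% and 11.3% with quantile normalization, 7.54% and 19.9% with fragment totals, and 7.74% and 24.4% with voom. Over the leave-outs the shares ran from 1.59% and 0.286% without MUS replicate 1 to 13.8% and 10.7% without Control replicate 2.

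Directions turned in Model vs. Control for Tlr1 (-0.10 with fragment totals, -0.039 with quantile normalization, -0.095 with voom, and -0.60 to 1.44 over the leave-outs), Tlr4 (-0.11 with fragment totals and -0.13 with voom) and Tlr8 (-0.32, -0.38 and -0.34 with these scalings, and -0.76 to 1.19 over the leave-outs). Fragment totals moved the median of all genes there from 0.04 to -0.40, and voom to -0.50. Relative to the median, Tlr1, Tlr4 and Tlr8 stood at 0.30, 0.29 and 0.08 with fragment totals and at 0.41, 0.37 and 0.17 with voom, while with quantile normalization Tlr1 stood at 0.03 and Tlr8 at -0.31. In MUS vs. Control, Tlr1 ran from -0.34 to 1.71 over the leave-outs. In MUS vs. Model, quantile normalization gave 0.081 for Cd14, 0.020 for Ly96 and 0.016 for Fcgr1, and the gene-length correction gave 0.014 for Ly96. Over the leave-outs of that comparison Tlr1 ran from -0.051 to 0.58, Tlr2 from -0.022 to 0.19, Tlr3 from -0.14 to 0.30, Tlr4 from -0.18 to 0.47, Ly96 from -0.28 to 0.22, Fcgr1 from -0.20 to 0.016 and S100a8 from -0.94 to 0.0047. Across all genes, limma called 0 in MUS vs. Model, with 825 at an unadjusted p under 0.05, while 5 higher and 2 lower were called with only the 2 groups, 2 and 2 with the replicate block, 1 and 0 with log2(FPKM + 0.1), 19 and 12 without Model replicate 2, 4 and 1 without either Control library, and 0 with voom (689 at an unadjusted p under 0.05).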
